A study of Mus musculus with 6 samples.

Results

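The peroxiredoxin family comprises 6 genes in the mouse, Prdx1 to Prdx6, and all of them were measured by 10 of the 39429 probes on a whole-genome Agilent microarray, among 20659 genes in all. The probes were taken by matching their accessions to the gene symbols. The family was picked with the contrast between the lines already known, so the differences of its members are given as a description, without a test. The samples were 2 mouse melanoma cell lines, B16-F1, which belongs to the widely used B16 melanoma from C57BL/6 mice, and the line D5.1G4, with 3 arrays for each line. Cells of both lines were untreated and had grown for 24 h in RPMI-1640 with 10% FBS, up to a confluence of 75% to 95%. The series title sets the lines apart by tumorigenicity, and the labels give D5.1G4 no further origin. All 9 melanocyte markers examined, among them Mitf, Sox10 and Tyr, were well above background on every array of both lines. Markers of other cell types were mixed. Well above background on all arrays of a line were 2 of 4 leukocyte markers in B16-F1 and 1 of 4 in D5.1G4, 2 of 4 endothelial and 2 of 3 epithelial markers in both lines, and 1 of 3 erythroid markers in B16-F1 and 0 in D5.1G4. Cd3e, Pecam1, Kdr, Krt5 and Krt14 were well above background on every array, with differences of -0.22 to 0.31, while Cdh5, Tek, Epcam and Hbb-bs had 0 such arrays. The leukocyte gene Ptprc had 2 in B16-F1 and 0 in D5.1G4, and Adgre1 and Hba-a1 each had 3 in B16-F1 and 2 in D5.1G4. The part of these markers in the results was not tested. B16-F1 replicates 2 and 3, scanned apart from the other arrays, had 62% and 61.7% of spots well above background. The other arrays of both lines had 53.4% to 54.4%, a limit on comparing such counts between the lines.

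Peroxiredoxins are enzymes that destroy hydrogen peroxide and organic peroxides through a reactive cysteine, which is oxidised in each cycle and then reduced again, in most members by thioredoxin. Prdx1 to Prdx4 are typical 2-Cys enzymes that work as pairs of subunits, Prdx5 is an atypical 2-Cys enzyme, and Prdx6 is a 1-Cys enzyme that relies on glutathione. The members also divide by place in the cell. Prdx1 and Prdx2 act mainly in the cytosol, Prdx3 in mitochondria, Prdx4 in the endoplasmic reticulum and the secretory pathway, Prdx5 in mitochondria, peroxisomes and the cytosol, and Prdx6 mainly in the cytosol.

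The member with the largest difference between the lines was Prdx4, at 41.0 times the level in B16-F1 cells relative to D5.1G4 cells. That is a log2 difference of 5.36, which was 4.66 with another background correction, normexp. On the probes that stand for the genes, the other 5 differed by at most 0.67 on the log2 scale. Promoter windows were on hand for 5 of the 6 members, from RefSeq on the GRCm38.p6 build, each running from 250 bases before to 50 bases after the gene's start. Prdx6 had no entry. The windows of Prdx4 and Prdx1 are shown. Prdx4 carries the largest difference of the family. Prdx1 is the member whose window holds a match to the antioxidant response element, the site bound by the stress factor NRF2. The Prdx4 window is chrX:155338411-155338710 on the minus strand and the Prdx1 window chr4:116685349-116685648 on the plus strand. Capitals mark an E-box, CACGTG, in Prdx4 and the antioxidant response element match in Prdx1.
Prdx4: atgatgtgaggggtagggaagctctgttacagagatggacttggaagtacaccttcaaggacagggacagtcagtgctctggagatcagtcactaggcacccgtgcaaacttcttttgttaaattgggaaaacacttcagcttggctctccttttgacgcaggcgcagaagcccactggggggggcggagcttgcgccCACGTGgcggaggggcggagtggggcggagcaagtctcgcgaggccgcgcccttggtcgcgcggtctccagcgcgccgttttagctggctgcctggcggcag
Prdx1: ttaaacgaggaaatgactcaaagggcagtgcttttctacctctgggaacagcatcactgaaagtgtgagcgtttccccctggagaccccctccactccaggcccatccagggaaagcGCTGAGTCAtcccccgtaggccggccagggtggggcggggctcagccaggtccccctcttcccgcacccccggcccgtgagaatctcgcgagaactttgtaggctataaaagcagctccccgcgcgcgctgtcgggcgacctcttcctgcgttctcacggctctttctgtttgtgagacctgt

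The antioxidant response element was searched as TGACNNNGC on both strands. Of the 5 windows only that of Prdx1 held it, where the motif on the opposite strand appears as GCTGAGTCA, starting 133 bases before the gene's start, and 12.4% of all 32851 windows held a match. The E-box CACGTG, a site of basic helix-loop-helix factors such as MYC and MITF, reads the same on both strands and was looked for after the Prdx4 window had been seen. It stood 52 bases before the start of Prdx4, was in no window of the other members, and was in 7.15% of all windows. The 5 windows held 15 to 27 CpG dinucleotides, 20 of them in Prdx4 and 19 in Prdx1, against a median of 7 over all windows. A match is a description of the letters and not a measured site.

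Values below are log2 signals relative to the array's 75th percentile, so that a level above 0 means a signal brighter than that percentile. No level of one probe is set against that of another, since probes differ in brightness for the same amount of RNA. Prdx4, the endoplasmic reticulum member, which passes oxidising equivalents to protein disulfide isomerases as it removes hydrogen peroxide, had levels of 2.50, 2.40 and 2.46 in B16-F1 cells. Its levels in D5.1G4 cells were -2.94, -2.89 and -2.88. The arrays of each line lay close together and the lines were far apart. The means were 2.45 ± 0.05 in B16-F1 and -2.90 ± 0.03 in D5.1G4 (SD, n = 3 each), a log2 difference of 5.36 (SE 0.03). Among the 18451 features tested, this was the difference with rank 18 counted from the highest in B16-F1.

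The Prdx4 signal was well above background on all 3 arrays of both lines, so that the transcript was measured in D5.1G4 and the fold is a ratio of measured values. The median brightness of its spot was 8141, 6181 and 9659 units in B16-F1, over a local background of 25, 23.5 and 25 units. In D5.1G4 it was 258, 150 and 163 units over 22, 27.5 and 24 units. The D5.1G4 readings lay above their local background, but nearer to it than the B16-F1 readings, and the size of the difference moved with the background correction. With normexp background correction the log2 difference was 4.66, and with no background subtraction at all 4.96. With the authors' values it was 5.39. The gene rests on 1 probe with 1 spot on each array (A_55_P1979457), so that an effect of that probe and one of the whole transcript cannot be told apart.

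**Figure D1:**
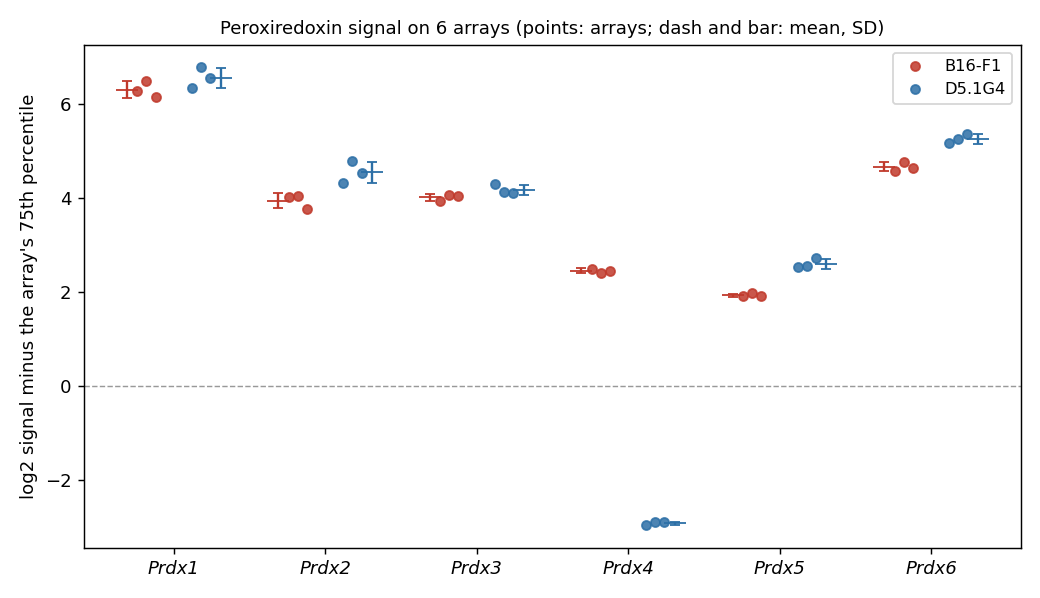
Level of each peroxiredoxin gene on the 6 arrays, as log2 signal minus the array's 75th percentile on the vertical axis, with B16-F1 left of D5.1G4 for each gene. Points are arrays, and the dash with its bar is the mean with the SD of 3 arrays. The Prdx4 points sit at 2.40 to 2.50 in B16-F1 and at -2.94 to -2.88 in D5.1G4, while the other genes stay within 0.67 between the line means.

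Prdx1, the most widely studied cytosolic member, had levels of 6.27, 6.49 and 6.14 in B16-F1 and 6.34, 6.77 and 6.55 in D5.1G4. The arrays of the lines overlapped. The difference was -0.25 (SE 0.16), and its sign turned under quantile normalization (0.07) and with the authors' values (0.08), so that no direction is given for Prdx1. A second Prdx1 probe gave a difference of -0.02 (SE 0.31), with levels of 2.74, 2.83 and 2.57 in B16-F1 and 3.20, 2.17 and 2.84 in D5.1G4. The D5.1G4 array with the highest value on the first probe, replicate 2, had the lowest on the second. The first probe was bright, at a median of 81234.5 to 147943 units, and no spot was marked as saturated.

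Prdx2, the other cytosolic member and a major protein of red blood cells, had levels of 4.03, 4.04 and 3.77 in B16-F1 and 4.32, 4.77 and 4.53 in D5.1G4. All B16-F1 arrays lay below all D5.1G4 arrays. The difference was -0.60 (SE 0.16), and it ran from -0.71 to -0.44 over all alternatives. Prdx2 has 1 probe on the array.

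Prdx3, the mitochondrial member, is printed as 10 spots of 1 probe on every array, which shows the precision of a single spot. The SD between its spots ran from 0.04 to 0.10 within an array. Its levels, as means over 9 or 10 usable spots, were 3.93, 4.06 and 4.04 in B16-F1 and 4.30, 4.12 and 4.10 in D5.1G4. The lines did not overlap, but the nearest arrays, B16-F1 replicate 2 and D5.1G4 replicate 3, lay close together, with means of 4.06 and 4.10 over 9 spots each. The difference was -0.16 (SE 0.08), and it was -0.03 under quantile normalization and -0.04 with the authors' values. Those values leave Prdx3 near equality between the lines.

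**Figure D2:**
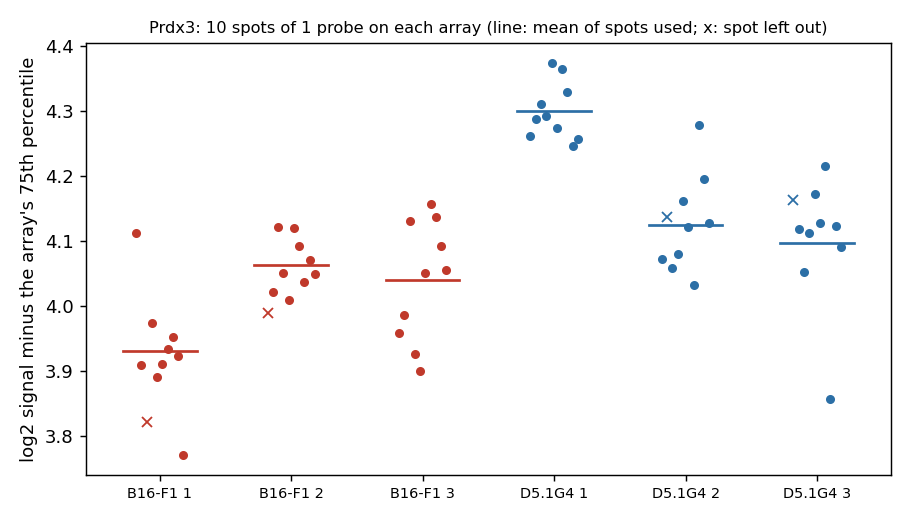
The 10 spots of the Prdx3 probe on each array, as log2 signal minus the array's 75th percentile, with the 3 B16-F1 arrays left of the 3 D5.1G4 arrays. The line is the mean of the spots used and a cross is a spot left out as an outlier. The spots of an array have SDs of 0.04 to 0.10, and D5.1G4 replicate 1 has the highest mean, 4.30.

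Prdx5, the atypical member found in mitochondria and peroxisomes, had levels of 1.91, 1.97 and 1.91 in B16-F1 and 2.53, 2.55 and 2.72 in D5.1G4. The lines did not overlap. The difference was -0.67 (SE 0.06), the most negative of the family, with values from -0.75 to -0.61 over all alternatives. In linear terms Prdx5 stood at 0.628 times its D5.1G4 level in B16-F1. Prdx5 has 1 probe.

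Prdx6, the 1-Cys member, which also has phospholipase A2 activity, had levels of 4.58, 4.77 and 4.63 in B16-F1 and 5.16, 5.24 and 5.36 in D5.1G4. All B16-F1 arrays lay below all D5.1G4 arrays, with a difference of -0.59 (SE 0.08). Further Prdx6 probes gave -0.74 (SE 0.15) and -0.62 (SE 0.18), again without overlap. The size moved with the processing, from -0.77 with normexp to -0.39 with the authors' values. The last of its probes was dim, at -4.92 ± 0.43 in B16-F1 and -4.82 ± 0.28 in D5.1G4 (SD, n = 3 each), was well above background on 3 B16-F1 and 2 D5.1G4 arrays, and gave -0.10 (SE 0.29). The near-identical gene Prdx6b, which is no member here, had 0 of 6 arrays well above background. Whether the Prdx6 probes also bind its transcript was not tested.

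**Figure D3:**
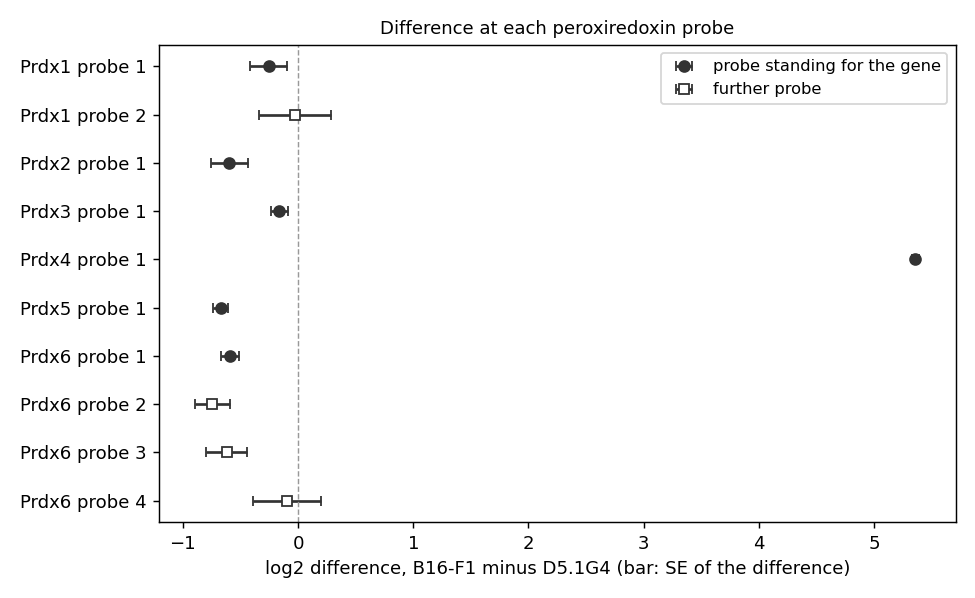
Difference between the lines at each of the 10 peroxiredoxin probes, as log2 B16-F1 minus D5.1G4 on the horizontal axis, with the SE of the difference from 3 arrays per line. Filled circles are the probes that stand for a gene, open squares the further probes of Prdx1 and Prdx6. The Prdx4 probe lies at 5.36 and the other 9 between -0.74 and -0.02.

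All 6 members were measured well above background on every array. The limma fit over all features called 1 of them, Prdx4, higher in B16-F1 and 0 lower, where it called 15.2% of all features (6.29% higher and 8.89% lower). In 5 of the 6 members every B16-F1 array lay on one side of every D5.1G4 array, and the same held for 50.7% of the features with values on all 6 arrays. The family was chosen on this contrast and nothing is read from these counts. The median difference over the 6 members was -0.42, and that over all features was 0.00. The median absolute difference was 0.59 for the members and 0.43 for all features.

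The lines were partly scanned apart, with 1 B16-F1 array and 2 D5.1G4 arrays sharing a scan. Within that scan the differences were 5.39 for Prdx4, -0.39 for Prdx1, -0.62 for Prdx2, -0.18 for Prdx3, -0.73 for Prdx5 and -0.72 for Prdx6. Each kept the sign that it had over all 6 arrays. The median difference over all features was -0.15 within that scan, against 0.00 over all 6 arrays, and the Prdx3 value lay near it. The share of spots well above background was 62% and 61.7% on B16-F1 replicates 2 and 3, the arrays of the first scan. In the scan that holds both lines it was 54.4% for B16-F1 and 53.4% and 53.5% for D5.1G4, and D5.1G4 replicate 1 had 53.9%. Over the 6 arrays the signal had its 75th percentile between 838.9 and 2034.6 units.

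The genes whose levels over the 6 arrays, each centred on its own mean, lay nearest to those of Prdx4 were Tph2, Tvp23a, Khk, Gpd1 and Pde10a, at distances of 0.34 to 0.56 log2 units. Khk, which encodes ketohexokinase, averaged 1.52 in B16-F1 and -3.97 in D5.1G4, and Gpd1, which encodes a cytosolic glycerol-3-phosphate dehydrogenase, 1.67 in B16-F1 and -3.34 in D5.1G4. Both were well above background in both lines, like Prdx4. Tph2, Tvp23a and Pde10a had 0 D5.1G4 arrays well above background. None of the 5 lies on the X chromosome with Prdx4. Nearness over 6 arrays of 2 lines is mainly a matter of a like difference between the lines.

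Prdx4 is the only X-linked member. Prdx1 lies on chromosome 4, Prdx2 on 8, Prdx3 and Prdx5 on 19 and Prdx6 on 1. Its surroundings on the X chromosome were read in the gene order of the RefSeq table, a step chosen after the Prdx4 difference was known. The nearest tested gene on one side, Acot9, which encodes a mitochondrial acyl-CoA thioesterase, averaged 2.53 in B16-F1 and 2.84 in D5.1G4, a difference of -0.31 (limma adjusted p = 0.167). The nearest on the other side, Ptchd1, averaged -4.75 in B16-F1 and -4.93 in D5.1G4 (difference 0.19, adjusted p = 0.541), a dim gene well above background on 2 B16-F1 arrays and 1 D5.1G4 array. The polyamine genes Sat1 and Sms, the next ones out, differed by 0.13 (adjusted p = 0.6) and -0.39 (adjusted p = 0.0323), both short of a 2-fold difference. None of these 4 genes, the nearest 2 tested on each side, was called.

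Of the 10 neighbours, 5 on each side, 2 were called, where 15.2% of all features were. Spin2c, at place 4 before Prdx4, stood at least 2.75-fold higher in B16-F1 (limma adjusted p = 9.24e-05), with a D5.1G4 signal not well above background on 3 of 3 arrays. Cnksr2, at place 5 after it, fell by 2.29 on the log2 scale (SE 0.18, adjusted p = 0.000368), with means of -4.03 in B16-F1 and -1.74 in D5.1G4. The called neighbours differed in opposite directions, and with normexp neither call was kept (1.64, adjusted p = 0.0829, for Spin2c and -1.29, adjusted p = 0.14, for Cnksr2).

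**Figure D4:**
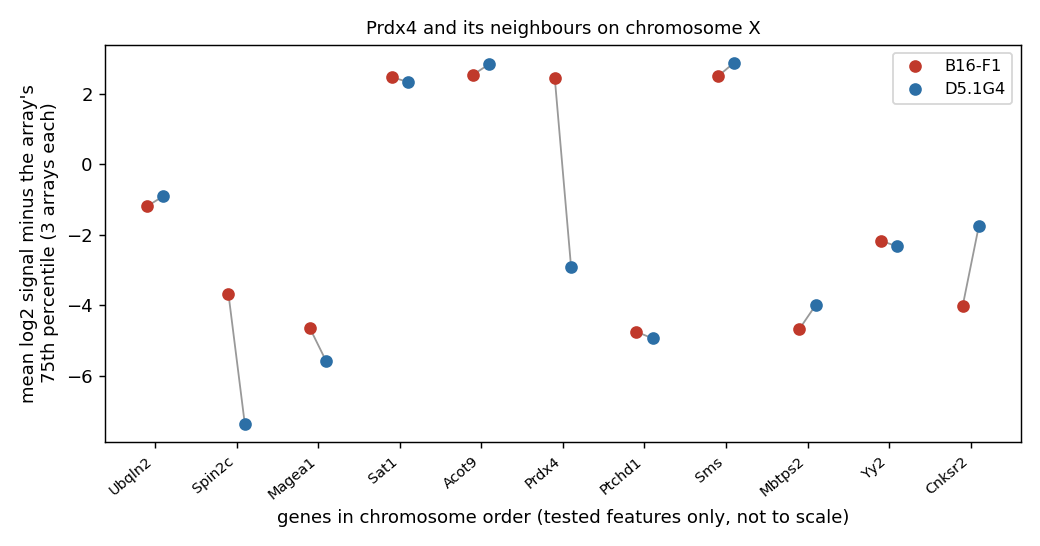
Mean level of Prdx4 and of the 5 nearest tested genes on each side, in chromosome order, as log2 signal minus the array's 75th percentile, with B16-F1 drawn left of D5.1G4 and a line joining the means of 3 arrays each. Prdx4 drops to -2.90 in D5.1G4, against 2.45 in B16-F1, between Acot9 and Ptchd1, whose means differ by -0.31 and 0.19.

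Genes that reduce, repair or accompany the peroxiredoxins were followed in 6 lists of 61 genes, of which 56 could be tested. The fit called 7 of the 56 (12.5%, against 15.2% of all features), 5 higher and 2 lower in B16-F1. Their median difference was 0.08 and their median absolute difference 0.38, against 0.00 and 0.43 over all features. The share called lay near that of all features. Of all features 6.29% were called higher and 8.89% lower, the shares to set beside the counts of single lists below.

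The thioredoxin and glutaredoxin system, which returns the oxidised cysteines to the reduced state, had 1 gene lower and 0 higher of 15 tested. That gene was Txn1, cytosolic thioredoxin, the direct electron donor of the cytosolic 2-Cys members, with levels of 5.16, 5.13 and 5.07 in B16-F1 and 6.12, 6.22 and 6.17 in D5.1G4. Txn1 fell by 1.05 on the log2 scale (SE 0.10, limma adjusted p = 0.000778), with no overlap between the lines. Its difference was under 2-fold with quantile normalization (-0.81, adjusted p = 0.0033) and with the authors' values (-0.80, adjusted p = 0.0035), and over all alternatives the adjusted p ran from 0.000187 to 0.0367. Txnrd1, the reductase that recharges thioredoxin, averaged 5.16 in B16-F1 and 5.21 in D5.1G4 (adjusted p = 0.794). Txn2, the mitochondrial thioredoxin that serves Prdx3, differed by 0.11 (adjusted p = 0.514).

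Sulfiredoxin, encoded by Srxn1, rescues 2-Cys peroxiredoxins that peroxide has over-oxidised. Its levels were 4.93, 4.68 and 4.35 in B16-F1 and 4.18, 4.33 and 4.28 in D5.1G4. The lines did not overlap, and the difference of 0.39 was not called (SE 0.17, adjusted p = 0.131). It was 0.58 with quantile normalization (adjusted p = 0.0312) and 0.57 with the authors' values (adjusted p = 0.0341), both short of a 2-fold difference. Of the 4 genes of repair and the sestrins, 1 was called. Sesn2, a stress-induced regulator first linked to peroxiredoxin repair, had levels of -1.34, -0.23 and -0.09 in B16-F1 and -1.43, -1.97 and -2.24 in D5.1G4. It rose by 1.32 (SE 0.38, adjusted p = 0.0406). The 2 high B16-F1 arrays are those of the first scan. Within the scan that holds both lines the difference was 0.76, under 2-fold, for 1 B16-F1 array against 2 D5.1G4 arrays. The call was lost in 9 of 18 alternatives, with adjusted p-values from 0.00667 to 0.378 over all of them. In 2 of the 9 a single B16-F1 array was left, which the fit takes to vary like the D5.1G4 arrays. The scan as a block, also among the 9, rests on the same single B16-F1 array of the shared scan and gave the same difference of 0.76.

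Partners of Prdx4 in the endoplasmic reticulum, where disulfide bonds are made, gave 1 gene higher and 0 lower of 10. Txndc5, a protein disulfide isomerase with thioredoxin domains, had levels of 2.30, 2.44 and 2.60 in B16-F1 and 0.98, 0.90 and 1.24 in D5.1G4. It rose by 1.41 (SE 0.15, limma adjusted p = 0.00102). The oxidase genes Ero1a and Ero1b, whose products make hydrogen peroxide as they load disulfide isomerases, differed by -0.58 (adjusted p = 0.114, without D5.1G4 replicate 3, whose Ero1a spot was marked) and -0.92 (adjusted p = 0.0039), both short of a 2-fold difference. P4hb, the classical protein disulfide isomerase, differed by 0.29 (adjusted p = 0.122), and Pdia4 by 0.99 (adjusted p = 0.0254). The median difference of this list was 0.21, against 0.00 over all features.

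Other enzymes against peroxide and superoxide gave 0 genes higher and 1 lower of 7 tested. Sod3, the extracellular superoxide dismutase, had levels of -2.36, -2.42 and -2.90 in B16-F1 and -0.14, -0.19 and 0.16 in D5.1G4. Sod3 fell by 2.50 (SE 0.19, limma adjusted p = 0.000339). Cat, which encodes catalase, averaged 2.14 in B16-F1 and 1.66 in D5.1G4, a difference of 0.48 (adjusted p = 0.0793), and another of its probes gave 1.52. With the mean over its probes the Cat difference was 0.9999 (adjusted p = 0.0155), just short of 2-fold. Over all alternatives it ran from 0.3467 to 0.9999. Gpx1, the cytosolic glutathione peroxidase, averaged 3.35 in B16-F1 and 3.00 in D5.1G4 (adjusted p = 0.302). The mitochondrial superoxide dismutase gene Sod2 differed by -0.89 (adjusted p = 0.00283), short of a 2-fold difference.

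Genes of NRF2 control, glutathione and NADPH supply gave 3 higher and 0 lower of 12. That is 25% called, against 15.2% of all features, 6.29% of which were called higher, and nothing is read from so few genes. Nqo1, a quinone reductase and classical NRF2 target, had levels of -1.84, -2.40 and -2.45 in B16-F1 and 0 D5.1G4 arrays well above background. It stood at least 7.47-fold higher in B16-F1 (limma adjusted p = 3.82e-05), a bound against the lowest signals well above background, and with normexp its fitted log2 difference was 2.36, a smaller fold than that bound. Slc7a11, the cystine importer, rose by 1.57 (SE 0.21, adjusted p = 0.00246), and Hmox1, heme oxygenase, rose 2.14-fold (adjusted p = 0.00105), where another Hmox1 probe gave a log2 difference of 1.44. Nfe2l2, which encodes NRF2 itself, differed by -0.27 (adjusted p = 0.292) on 2 usable arrays a line, and its inhibitor gene Keap1 by 0.33 (adjusted p = 0.148). Prdx1 and Srxn1, known NRF2 targets too, were not called. Of the same list, Gclm differed by 0.77 (adjusted p = 0.0157), short of a 2-fold difference, and G6pdx by -0.29 (adjusted p = 0.255). The activity of NRF2 was not tested. Gstp1, whose product recharges Prdx6 with glutathione, differed by 0.09 (adjusted p = 0.715).

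Of 8 genes whose products pass on peroxide signals, such as the kinase gene Map3k5, 0 were called by limma, where 15.2% of all features were. An unadjusted p under 0.05 was found for 5 of the 8, and for 26 of all 56 partner genes tested. The share of all features under that p is not given here, so nothing is read from this count. Stk4, a stress-responsive kinase gene, had a difference of 0.47 (adjusted p = 0.0159), short of a 2-fold difference, and another of its probes gave 0.04.

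**Figure D5:**
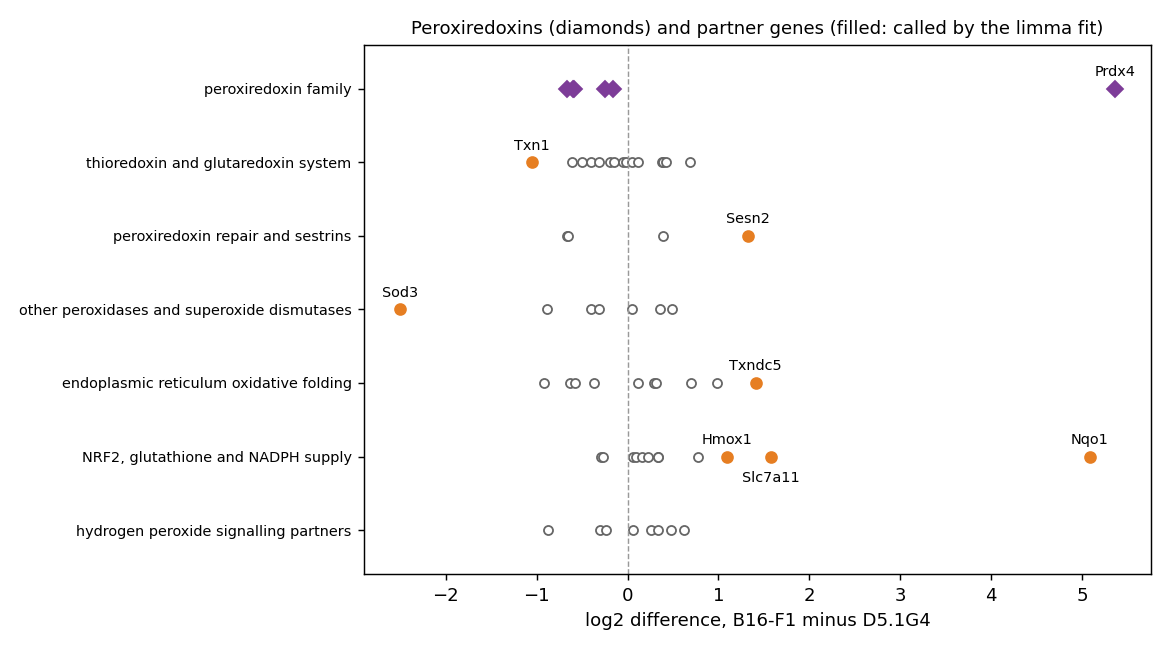
Differences between the lines, as log2 B16-F1 minus D5.1G4, for the 6 peroxiredoxins (diamonds) and the tested genes of 6 partner lists (circles, filled and named where the limma fit called them). Prdx4 at 5.36 and Nqo1 at 5.08 lie furthest to the right and Sod3 at -2.50 furthest to the left. The Nqo1 value is a fitted one, since its D5.1G4 signal was not well above background.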

How the data were processed

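Each melanoma line, B16-F1 and D5.1G4, had its RNA read on 3 one-colour arrays. The deposited intensities are linear Cy3 signals of single spots from Agilent Feature Extraction 11.0.1.1, per the submitters' processing notes. The processed intensity has its background subtracted and trends removed within the array, with nothing done between arrays, per the file headers. The authors' table of log2 values was used as an alternative, and the sources used here do not give its normalization. Its probes could be matched by name, and each of its columns correlated at 0.9995 or more with the log2 intensities of the same array.

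Control spots and spots marked as outliers were left out, and spots of 1 probe were averaged. The log2 of the processed intensity minus that of the array's 75th percentile is the level used throughout. Accessions were matched to the RefSeq gene table of GRCm38.p6, which named 27234 of 39429 probes. The array's own annotation is on mm9, so coordinates are given only for the promoter windows, which RefSeq places on GRCm38.p6. The probe with the highest mean over 6 arrays stood for a gene, and features well above background on at least 3 arrays were tested.

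Limma 3.58.1 in R 4.3.3, tested on simulated data, compared the lines over all features with Benjamini-Hochberg adjustment, 2-sided. Calls required an adjusted p up to 0.05 together with a 2-fold difference. Some results are not reported here. The peroxiredoxins, the partner lists and the naming rules were chosen with earlier results of these data known. The rule named every called partner gene, Txn1, Txnrd1, Srxn1, Cat and Gpx1, and the 5 genes most like the peroxiredoxin with the largest difference. Other partner genes given as background to a list were chosen after their values were seen. The neighbourhood of the genes and 1 promoter motif were added after the values were seen. The labels do not say whether replicates were separate cultures, so p-values cover only the spread among these arrays, and that spread may be technical. The files' scan times put B16-F1 replicates 2 and 3 in 1 scan, B16-F1 replicate 1 with D5.1G4 replicates 2 and 3 in another, and D5.1G4 replicate 1 in one of its own. The labels name no pairs, and same-numbered arrays did not deviate together (correlations of -0.39, -0.03 and -0.30), so replicate numbers were not taken as pairs. No same-numbered arrays shared a scan, so these correlations cannot exclude a pairing of cultures. The alternatives were other background corrections, normalizations, filters, probe rules, blocks and left-out arrays. The files used here hold no column of spot means, so normexp was run on the spot median.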

Additional observations from a re-analysis of the deposited data

How the results depend on the processing

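Prdx4 kept a log2 difference of 4.66 to 5.40 under all alternatives tried: 4.66 with normexp and, in steps chosen after seeing the data, 4.96 with no background subtraction and 5.40 without the 2 arrays of the first scan. Prdx1 was 0.0703 with quantile normalization and 0.0816 with the authors' values, Prdx3 -0.0254 and -0.0367, and Prdx6 -0.40 and -0.39. With normexp Prdx5 was -0.75 and Prdx6 -0.77, and Prdx6 was -0.72 with the scan as a block and within the scan that holds both lines. Normexp called 1272 features (552 higher, 720 lower) in place of 2800 (1160 higher, 1640 lower). Of the partner genes, 1 was called lower with quantile normalization and with the authors' values, in place of 2. Txnrd1 turned sign, to 0.17 with quantile normalization, 0.18 with the authors' values, 0.0972 with the scan as a block and within that scan and 0.0889 without the arrays of the first scan, and leaving out 1 array at a time gave -0.116 to 0.0465 (0.0465 without B16-F1 replicate 3). The looser motif TGANNNNGC, in 41.3% of all windows, was in 2 of the 5, Prdx1 and Prdx5. Leaving out 1 array at a time gave 5.33 to 5.38 for Prdx4, -0.36 to -0.14 for Prdx1, -0.71 to -0.48 for Prdx2, -0.201 to -0.0995 for Prdx3 (-0.0995 without D5.1G4 replicate 1), -0.71 to -0.61 for Prdx5 and -0.65 to -0.54 for Prdx6. With the replicate number as a block 2581 features were called, and of the partner genes 6, without Sesn2 (adjusted p = 0.122). Whether the numbers pair cultures is not known. Among the other genes named the block ended only the call of Get3 (adjusted p = 0.0615). With the scan as a block the median over all features was -0.15. That block compares the lines only in the scan that holds both, so it gave the same peroxiredoxin differences as that scan alone. The 3 arrays a line, 1 spot for most probes and the dim Prdx4 signal in D5.1G4 limit the precision.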

Other observations

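Neighbours of the other peroxiredoxin genes in chromosome order, up to 5 tested genes on each side, were read in the same way as those of Prdx4, after the values were seen. Limma called 15.2% of all features, and around Prdx5 it called 4 of 10. Its nearest neighbour on one side, Ccdc88b, stood at least 16.3-fold lower in B16-F1, with 0 B16-F1 arrays well above background, while Rasgrp2 rose by 2.75, Nrxn2 by 1.32 and Catsperz at least 2.27-fold. The nearest on the other side, Trmt112, differed by -0.17 (adjusted p = 0.306). With normexp the calls of Ccdc88b (log2 difference -2.04, adjusted p = 0.0893) and Catsperz (0.82, adjusted p = 0.356) were lost, and both folds were smaller than these bounds. Catsperz was also lost without the 2 arrays of the first scan (1.48, adjusted p = 0.103).

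Around Prdx2 3 of 10 were called. Get3 rose by 1.60 and Fbxw9 by 1.33, and Dnase2a fell by 1.36. Within the scan that holds both lines, with 1 B16-F1 array against 2 D5.1G4 arrays, the differences were 1.40 for Get3 and -1.01 for Dnase2a, both still over 2-fold. Dnase2a was not called in the 2 alternatives that leave a single B16-F1 array, that scan and the set without the arrays of the first scan (adjusted p = 0.0547 and 0.112). Get3 was not called in 3 alternatives, with the scan as a block (1.40, adjusted p = 0.16), with the replicate block (1.60, adjusted p = 0.0615) and without D5.1G4 replicate 3 (1.46, adjusted p = 0.0586). Around Prdx1 2 of 10 were called, Tmem69 (-1.56) and Mutyh (-1.06). Tmem69 was lost with normexp (-0.92, adjusted p = 0.188), and Mutyh was lost in 6 alternatives, in which its difference was under 2-fold. Around Prdx3, with 8 tested neighbours, and around Prdx6, with 10, limma called 0 genes. An unadjusted p under 0.05 was found for 3 and 3 of these neighbours. Nothing is read from these counts, since the share of all features under that p is not given.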
